A study of Brassica oleracea with 12 samples.

Results

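Carbonic anhydrases are zinc enzymes that interconvert CO2 and bicarbonate. Plants carry alpha, beta and gamma classes of them, and in leaves of C3 plants the beta enzyme of the chloroplast stroma is among the most abundant proteins after Rubisco, the enzyme that fixes CO2. In Arabidopsis the beta class is also spread over the cytosol, plasma membrane and mitochondria, and some members act in the response of guard cells to CO2 and in the supply of bicarbonate to phosphoenolpyruvate carboxylase.

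The values of 10 carbonic anhydrase genes are described here, out of 45325 genes in the expression table of the variegated ornamental kale line 'JC007-2B'. The 10 genes were chosen by name, with their difference between green margin and white center already known, so that difference is given as a description without a test. In all, 22 rows of the table are annotated as carbonic anhydrase, 19 of them in their description, and the other 12 rows are summarised further on. Averaged over the 12 libraries, all 10 genes reached 1 FPKM (fragments mapped to a gene, scaled for transcript length and library total), and all were tested in both comparisons.

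All libraries came from leaves of a single double-haploid line, which carries the variegated trait in every group, so no group without the trait was compared. At the variegated leaf stage tissue was sampled from the margin, which is green (S3_S), and from the center, which is white (S3_C), and at the stages before it whole leaves without veins were taken when white began to appear at the center after chilling (S2) and when they were still entirely green (S1). Each of the 4 groups had 3 libraries. The labels do not say whether the S1 and S2 libraries came from separate plants, so their p-values measure the spread between these libraries only. Whether margin and center libraries of the same number came from the same leaves was not known here, and the main fit takes them as unpaired. Temperature and plant age are not given per library, and the effects of stage, chilling and time cannot be told apart between S2 and S1.

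The FPKM of a library summed to 429278 to 461587. Relative to S1 replicate 1, set to 1, the sequencing depth estimated from the spacing of low values was 0.902 to 1.35. Low single-transcript genes had a smallest value above 0 of 0.0340 FPKM in the median, which is about what a single fragment is worth. *LHCA4*, a light-harvesting gene of photosystem I, was at 2078, 1791 and 1872 FPKM in S3_S, against 452, 395 and 497 FPKM in S3_C. It was at 259, 268 and 836 FPKM in S2, against 1819.7, 762 and 868 FPKM in S1. The third S2 library thus stood within the range of S1 for this marker of green tissue, while the first S1 library stood far above the other S1 libraries. Calls between S2 and S1 are also given without these 2 libraries. Veins were left out only in S1 and S2 by their labels. The summed level of the vein markers *XCP1*, *CESA4*, *CESA8* and *IRX9* was 2.22 to 3.81 FPKM in S3_S, against 10.5 to 15.5 FPKM in S3_C, and 7.51 to 12.8 FPKM in S2, against 7.56 to 13.1 FPKM in S1. These markers thus moved with the contrast between margin and center, and the part of vein tissue in the differences below was not tested. None of the guard cell or epidermis markers listed gave a usable row.

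In S3, 4 of the 10 genes were higher in the green margin than in the white center in every library, and 3 of them were nearly absent from the center. The leading copy, *Bo5g155090*, is described as the chloroplastic beta carbonic anhydrase 1 of Arabidopsis (*AT3G01500*), the main stromal enzyme of the leaf there. It was at 2022, 343 and 1293 FPKM in S3_S, against 0.497, 0.447 and 0.649 FPKM in S3_C. Its lowest margin library was still far above the center, although the margin libraries themselves spread widely (1219 ± 842 FPKM in S3_S and 0.531 ± 0.105 FPKM in S3_C, SD, n = 3 each). The ratio of the means was 2296. On the log2(FPKM + 1) scale, which understates the change of genes that are low in a group, the difference was 9.30 (SE 0.64), rank 1 of 42625 genes tested, 10.05 without S3_S replicate 2 and 4.40 in a linear model with a library-size covariate.

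*CA2* (*Bo2g012160*), projected from *AT5G14740*, which encodes the beta carbonic anhydrase 2 of the Arabidopsis cytosol, came next. It was at 488, 225 and 172 FPKM in S3_S, against 0.365, 0.571 and 0.776 FPKM in S3_C. The ratio of the means was 517 and the log2 difference 7.42 (SE 0.39), rank 2. *Bo1g158950*, described as a carbonic anhydrase with no Arabidopsis counterpart named, was at 296, 10.4 and 24.7 FPKM in S3_S, against 0.320, 0.0279 and 0.0655 FPKM in S3_C. In this case a single margin library, S3_S replicate 1, held most of the signal, and 2 of the center libraries were close to the worth of a single fragment, so no ratio is given. Its log2 difference was 5.29 (SE 1.17, rank 8), with 3.92 without S3_S replicate 1 and 6.27 without S3_S replicate 2. In the model with a library-size covariate it was −0.38. The scaling of these libraries moved with the group, as given at the end, so that sign is not read.

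*Bo6g111010*, another copy described only as a carbonic anhydrase, differed between the regions at a far lower level. It was at 29.9, 17.7 and 15.1 FPKM in S3_S, against 3.25, 3.79 and 2.73 FPKM in S3_C. The ratio of the means was 6.41 and the log2 difference 2.31 (SE 0.28), rank 237. Unlike the 3 copies above, it kept a clear level in the white center. The plot of all members by library shows these 4 copies beside the 6 that did not separate in this way.

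**Figure D1:**
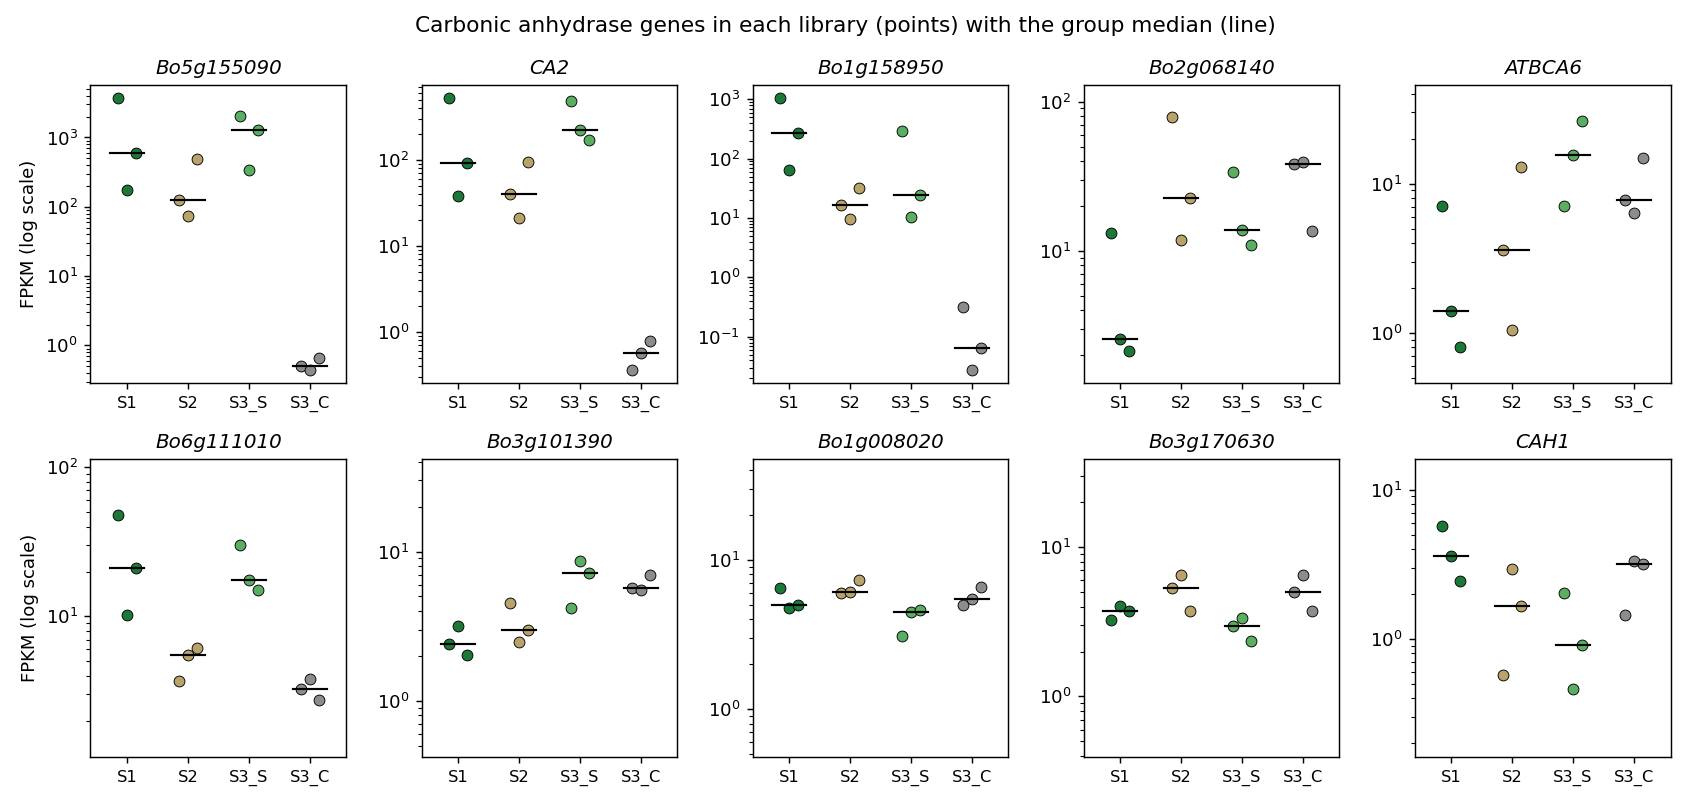
FPKM (log scale, one panel per gene) of the 10 carbonic anhydrase genes in the 12 libraries, with a point per library and a line at the group median. *Bo5g155090*, *CA2*, *Bo1g158950* and *Bo6g111010* lie higher in every S3_S library than in any S3_C library, and *Bo5g155090* stays under 1 FPKM in S3_C (0.447 to 0.649 FPKM).

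Of the other 6 copies, all but *CAH1* stayed at 2.37 FPKM or more in every S3 library. *CAH1* went down to 0.457 FPKM in S3_S, within the range of *Bo5g155090* in S3_C (0.447 to 0.649 FPKM). *Bo2g068140* was the most abundant of the 6 on average, with 33.7, 13.7 and 10.9 FPKM in S3_S, against 38.3, 39.2 and 13.7 FPKM in S3_C. *ATBCA6* (*Bo1g087840*), the counterpart of the mitochondrial beta carbonic anhydrase 6 of Arabidopsis, was at 7.11, 15.6 and 26.2 FPKM in S3_S, against 7.78, 6.38 and 14.8 FPKM in S3_C. Both overlapped between the regions. *Bo3g101390*, described as a carbonic anhydrase and assembled with 5 transcripts, was at 4.16, 8.70 and 7.20 FPKM in S3_S, against 5.66, 5.51 and 6.97 FPKM in S3_C, and *CAH1* (*Bo8g082180*) was at 2.04, 0.457 and 0.903 FPKM in S3_S, against 1.44, 3.31 and 3.16 FPKM in S3_C. *CAH1* is the only alpha class member among the 10, and its Arabidopsis counterpart reaches the chloroplast through the secretory pathway. These copies overlapped as well.

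A pair of beta copies lay lower in the green margin without overlap. *Bo1g008020* was at 3.10, 4.48 and 4.62 FPKM in S3_S, against 5.02, 5.43 and 6.62 FPKM in S3_C. *Bo3g170630*, projected from the chloroplast enzyme beta carbonic anhydrase 5 of Arabidopsis (*AT4G33580*), was at 2.96, 3.34 and 2.37 FPKM in S3_S, against 5.04, 6.52 and 3.72 FPKM in S3_C. The gaps were narrow, and after median-of-ratios scaling of the 12 libraries neither copy was separated any more. The log2 differences of the 6 copies ran from −0.79 (*CAH1*, SE 0.39) to 0.61 (*ATBCA6*, SE 0.51), with −0.65 for *Bo2g068140*, −0.63 for *Bo3g170630*, −0.41 for *Bo1g008020* and 0.08 for *Bo3g101390*. The signs of *ATBCA6* (−0.17) and *Bo3g170630* (0.36) turned in the covariate model, and that of *Bo3g101390* (−0.11) without S3_S replicate 2. The difference of *Bo2g068140* was −0.27 after median-of-ratios scaling and −0.038 in the covariate model.

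In counts, 4 of 10 members were higher without overlap in S3_S, where 6.35% of the 42625 genes tested were, and 2 of 10 were lower without overlap, where 24.4% of the genes were. A log2 difference over 1 was found for 4 members, against 3.36% of all genes, and one under −1 for 0 members, against 6.41% of all genes. The median difference was 0.35 over the members and −0.14 over all genes tested. Since the members were chosen with this contrast known, nothing is read from these shares. Without S3_S replicate 1, *ATBCA6* and *Bo3g101390* also lay higher in S3_S without overlap (6 members in all) and *CAH1* lower (3 members). *CAH1* was also lower without S3_C replicate 1, and *Bo2g068140* without S3_C replicate 3 (3 members each time). With a library left out, values separate more easily, and the share over all genes was not computed. Nothing is read from these counts either. As leaf pieces hold many cell types, fewer cells that express a gene and less RNA of it per cell cannot be told apart in any of these values.

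The earlier stages asked whether the same copies also differed before the pattern was complete, between leaves that began to whiten (S2) and green leaves (S1). Of the 4 copies that marked the margin, 2 were lower in S2 without overlap, *Bo1g158950* and *Bo6g111010*. *Bo1g158950* was at 16.4, 9.49 and 31.6 FPKM in S2, against 1034, 63.6 and 275 FPKM in S1. Its log2 difference was −3.87 (SE 1.03), with an unadjusted p of 0.00941 and an adjusted p of 0.137 in limma. *Bo6g111010* was at 3.68, 5.54 and 6.18 FPKM in S2, against 47.7, 10.3 and 21.1 FPKM in S1. Its log2 difference was −1.93 (SE 0.54), with an unadjusted p of 0.0115 and an adjusted p of 0.143 in limma. Both passed the threshold of the study, which asks for a log2 difference beyond 1 in either direction and an unadjusted p under 0.05, and neither passed an adjusted p of 0.05. Without S1 replicate 1 the differences were −2.88 and −1.39, without S1 replicate 2 they were −4.88 and −2.44, and without S2 replicate 3 they were −4.29 and −2.05, past the threshold each time. The covariate model did not call either of them (−3.68 and −0.63).

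The leading 2 copies of the margin overlapped between the earlier stages. *Bo5g155090* was at 126, 72.9 and 489.9 FPKM in S2, against 3652, 172 and 602 FPKM in S1, and *CA2* was at 40.5, 21.4 and 95.0 FPKM in S2, against 520.4, 37.8 and 91.9 FPKM in S1. In both copies S2 replicate 3 was the highest S2 library and S1 replicate 2 the lowest S1 library, and S1 replicate 1 stood several-fold above the rest. The log2 differences were −2.12 (SE 1.36, adjusted p = 0.411 in limma) for *Bo5g155090* and −1.46 (SE 1.04, adjusted p = 0.460 in limma) for *CA2*, which did not pass the threshold. Without S1 replicate 1 they were −0.96 and −0.43, and without S2 replicate 3 they were −2.90 and −2.02, again not past it. Without S2 replicate 3, or without S1 replicate 2, the *Bo5g155090* values no longer overlapped, which is easier to reach with a library left out.

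*Bo2g068140*, which overlapped between margin and center, was higher in S2 by the same threshold. It was at 79.0, 11.9 and 22.6 FPKM in S2, against 13.2, 2.54 and 2.12 FPKM in S1, so that the lowest S2 library lay just under the highest S1 library. The log2 difference was 2.42 (SE 0.86), with an unadjusted p of 0.0302 and an adjusted p of 0.197 in limma. This call was lost after median-of-ratios scaling (1.95) and quantile normalization (2.06). It was also lost without S1 replicate 2 (2.12), S1 replicate 3 (2.03), S2 replicate 1 (1.69) or S2 replicate 3 (2.57). The call held without S1 replicate 1 (3.12), and the linear model with a library-size covariate turned the difference to −0.55.

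The other 5 copies did not pass the threshold between S2 and S1. *CAH1* was at 0.576, 2.94 and 1.66 FPKM in S2, against 5.69, 3.58 and 2.43 FPKM in S1, with a log2 difference of −0.89 (adjusted p = 0.318 in limma). It passed the threshold after median-of-ratios scaling (−1.25) or quantile normalization (−1.31) and without S2 replicate 2 (−1.20). *ATBCA6* was at 3.58, 1.04 and 12.8 FPKM in S2, against 7.07, 1.39 and 0.805 FPKM in S1, a difference of 0.63 that was −0.095 without S2 replicate 3. *Bo3g101390*, *Bo1g008020* and *Bo3g170630* lay between 2.02 and 7.34 FPKM in all 6 libraries, and their differences of 0.27, 0.23 and 0.39 changed sign after both scalings.

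Among the members, 1 of 10 was thus called higher in S2, where 7.02% of 42771 genes tested were called higher, and 2 of 10 were called lower, where 2.04% were. With an adjusted p under 0.05 in limma 0 members were found, against 0.00234% of all genes (1 gene). An unadjusted p under 0.05 was found for 3 of 10 members and for 8844 of the 42771 genes tested. The linear model with a covariate gave 0 members at that unadjusted p, and 1455 of the 42771 genes. The limma fit over all 12 libraries gave 1 of 10 members with an adjusted p under 0.05, and 3643 of the 42771 genes. Without overlap, 0 members were higher in S2, against 23.8% of all genes, and 2 members were lower, against 4.32% of all genes. The median difference was −0.33 over the members and 0.21 over all genes. Genes that averaged 1 FPKM or more were shifted as a whole between these groups (median difference 0.44), which median-of-ratios scaling took to 0.01. After that scaling 0 of 10 members were called higher in S2, and 1052 of the 42771 genes. Called lower were 3 of 10 members and 1827 of the 42771 genes. The plot of differences sets both comparisons side by side.

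**Figure D2:**
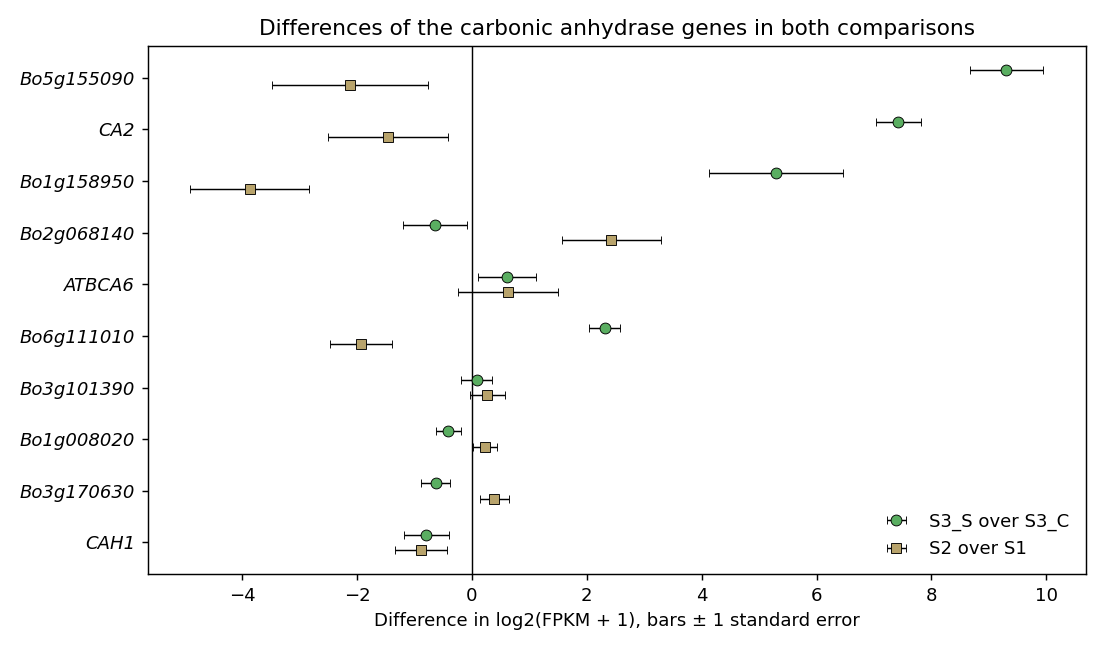
Difference in log2(FPKM + 1) of each member for S3_S over S3_C (circles) and S2 over S1 (squares), with bars of 1 standard error from limma (3 libraries per group). *Bo5g155090*, *CA2*, *Bo1g158950* and *Bo6g111010* lie right of 0 for the circles (9.30, 7.42, 5.29 and 2.31) and left of it for the squares (−2.12, −1.46, −3.87 and −1.93), while *Bo2g068140* lies at −0.65 and 2.42.

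A copy was said to follow greening when it was higher in S3_S than in S3_C and lower in S2 than in S1, each time without overlap. This held for *Bo1g158950* and *Bo6g111010*, 2 of 10 members, and for 1.36% of all 45325 genes. The opposite pattern was found for 0 of 10 members and 8.64% of all genes. The first condition is the contrast known when the members were chosen, so nothing is read from these shares. *Bo5g155090* and *CA2* fulfilled the first condition only. The number stayed at 2 after median-of-ratios scaling and without each library in turn, except that *Bo5g155090* made it 3 without S1 replicate 2 or without S2 replicate 3. The share over all genes was not computed with a library left out. The margin itself was compared with green leaves too. The *Bo5g155090*, *CA2*, *Bo1g158950* and *Bo6g111010* values of S3_S and S1 overlapped, and *ATBCA6* and *Bo3g101390* were higher in S3_S without overlap (2 of 10 members, 25.9% of all genes), while *Bo1g008020* and *CAH1* were lower (2 of 10, 13.2% of all genes).

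The white center was also lower than the whitening leaf in the leading copies. *Bo5g155090*, *CA2* and *Bo1g158950* were lower in S3_C than in S2 without overlap (3 of 10 members, 3.65% of all genes), since S2 held at least 72.9, 21.4 and 9.49 FPKM of them and S3_C at most 0.649, 0.776 and 0.320 FPKM. *Bo6g111010* overlapped, with 2.73 to 3.79 FPKM in S3_C and 3.68 to 6.18 FPKM in S2. *Bo3g101390* was higher in S3_C (1 of 10 members, 10.6% of all genes). S2 was taken from whole leaves that still had a green margin and S3_C from the center alone, so region and stage cannot be told apart in this comparison. The S3 values were known when the members were chosen. Nothing is therefore read from the shares of this comparison or of S3_S against S1.

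The makeup of the family differed between the white center and all other groups. Together, *Bo5g155090*, *CA2* and *Bo1g158950* made 90.1% to 97.1% of the summed FPKM of the members in S3_S, against 1.47% to 2.80% in S3_C, and 64.1% to 91.5% in S2, against 90.2% to 98.4% in S1. *Bo5g155090* was the leading copy in each of the 9 libraries outside the white center, with 44.2% to 83.1% of the members. In S3_C the leading copy was *Bo2g068140* in replicates 1 and 2 (56.6% and 55.1%) and *ATBCA6* in replicate 3 (27.9%, with 25.7% for *Bo2g068140*). These shares follow from the values above and are no separate evidence.

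**Figure D3:**
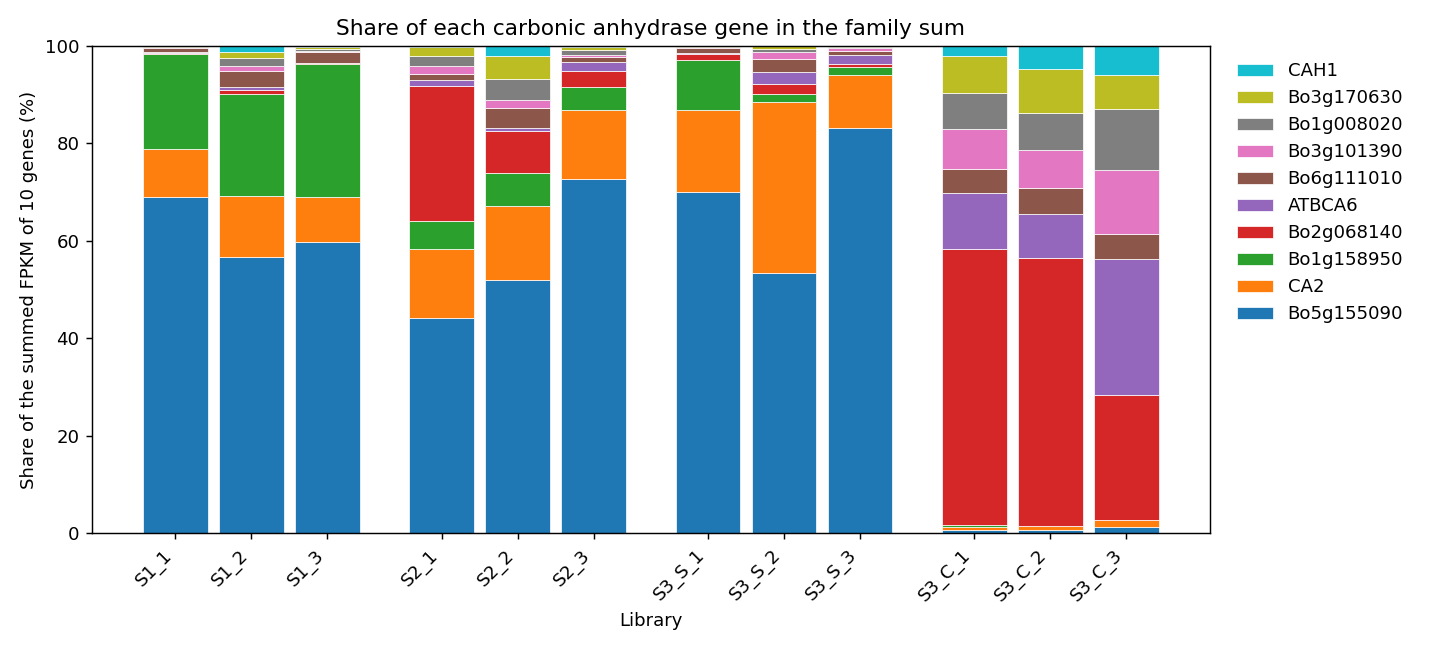
Share of each member in the summed FPKM of the 10 genes (%, stacked bars), one bar per library of the 4 groups. *Bo5g155090* leads in the S1, S2 and S3_S libraries, and in S3_C its share is 0.628% to 1.22%, with *Bo2g068140* at 25.7% to 56.6%.

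In absolute terms, all 22 rows together summed to 645 to 2891 FPKM in S3_S, against 56.7 to 73.8 FPKM in S3_C, and to 143 to 678 FPKM in S2, against 309 to 5298 FPKM in S1. The 7 members outside the leading 3 summed to a like level in all groups. They were at 63.9 to 83.0 FPKM in S3_S, against 51.7 to 70.1 FPKM in S3_C, and at 36.4 to 102.7 FPKM in S2, against 29.7 to 85.8 FPKM in S1, with overlap in both pairs. The family total of the white center thus lay in the range that these copies alone gave elsewhere.

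Ratios within a library do not depend on the scaling between libraries. The ratio of *Bo5g155090* to *LHCA4* was 0.192 to 0.973 in S3_S, against 0.00110 to 0.00131 in S3_C, so that the carbonic anhydrase was lower in the center by far more than the light-harvesting gene. Between S2 (0.272 to 0.586) and S1 (0.226 to 2.01) the ratio overlapped. The ratio to *Bo4g137200*, the most abundant Rubisco small chain, gave the same order, with 0.0808 to 0.267 in S3_S, against 0.000457 to 0.000870 in S3_C. *Bo4g137200* differed less than the other abundant small chains, so this ratio does not stand for them. Its S3_S mean was 6.72 times its S3_C mean. This factor was 24.2 for *Bo4g144000*, 86.5 for *Bo6g059930* and 169.5 for the joint row of *Bo4g137140* and *Bo4g137150*. The ratio of *Bo1g158950* to *Bo5g155090* separated the stages in another way, with 0.0646 to 0.130 in S2, against 0.283 to 0.457 in S1, and 0.0191 to 0.146 in S3_S. The ratios were chosen after the values were seen and carry no test. In S3_C (0.0625 to 0.644) both genes were too low for this last ratio to be read.

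**Figure D4:**
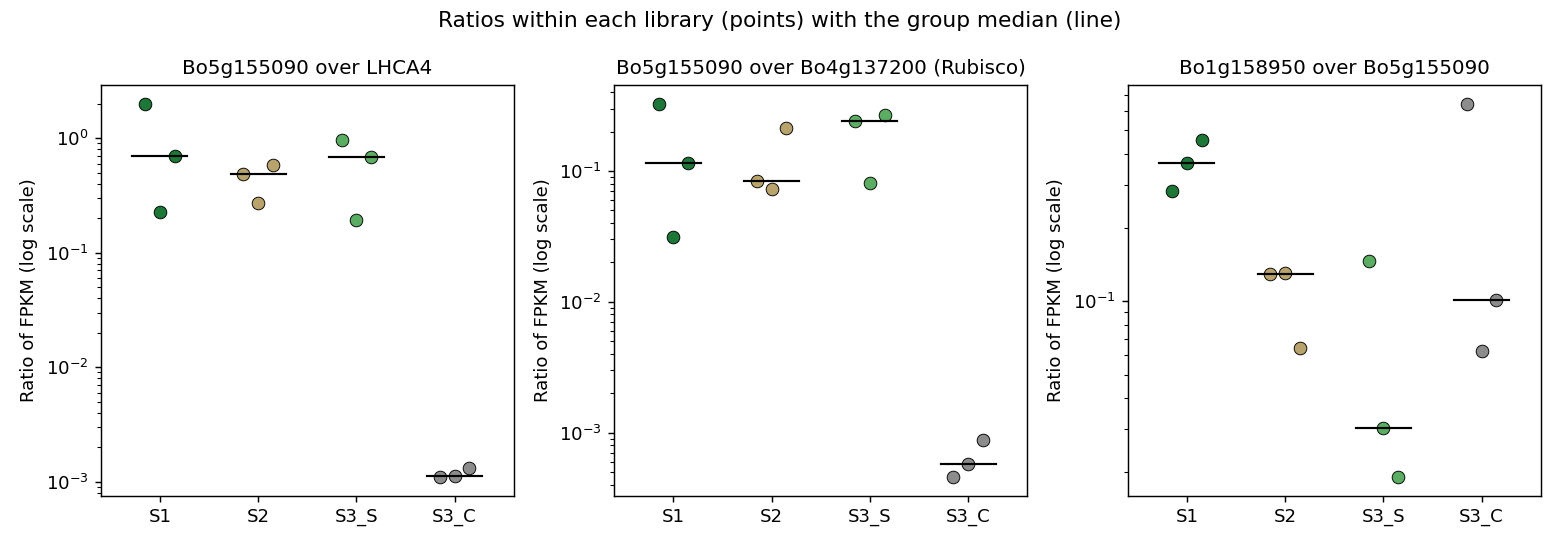
Ratios of FPKM within each library (log scale, a point per library, a line at the group median) for *Bo5g155090* over *LHCA4*, *Bo5g155090* over the Rubisco small chain *Bo4g137200*, and *Bo1g158950* over *Bo5g155090*. The first 2 ratios are far lower in S3_C (at most 0.00131 and 0.000870) than in the other groups, and the last is higher in S1 (0.283 to 0.457) than in S2 and S3_S.

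The genes most like the leading copies were sought by Pearson r of log2(FPKM + 1) over the 12 libraries, among genes outside the family that averaged 1 FPKM or more. The closest to *Bo5g155090* was a Rubisco small chain, the joint row of *Bo4g137140* and *Bo4g137150* (r = 0.975), followed by *Bo9g017950* (0.959), the carboxypeptidase *Bo3g175430* (0.951), *Bo8g076880* (0.932) and *GAPB*, a subunit of the chloroplast glyceraldehyde-3-phosphate dehydrogenase (0.929). Within the family, r was 0.986 with *CA2*, 0.908 with *Bo1g158950* and 0.845 with *Bo6g111010*, and −0.644 to −0.027 with the other 6. The closest to *Bo1g158950* were 2 more Rubisco small chains, *Bo4g144000* (0.975) and *Bo6g059930* (0.968). Next came *Bo5g126310* (0.967), *crr1* (0.967) and *Bo2g085260* (0.961). The 12 libraries share 4 groups, so these values describe the differences between groups as well as those between libraries.

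The 12 rows outside the members were low. *Bo7g116190*, described as a carbonic anhydrase, was the highest and the only one to average 1 FPKM or more. It was at 1.71, 1.94 and 1.85 FPKM in S3_S, against 2.15, 1.71 and 2.94 FPKM in S3_C, and at 1.38, 1.32 and 2.89 FPKM in S2, against 3.81, 4.43 and 2.87 FPKM in S1. The remaining 11 rows, among them the alpha class *ATACA3* and the gamma class *GAMMA CAL2*, reached at most 1.06 FPKM. In limma, 0 of 10 of the rows tested were called for S3_S against S3_C and 0 of 12 for S2 against S1, with 0 at an unadjusted p under 0.05 in both. Over all genes, 10776 of 42625 and 8844 of 42771 had such an unadjusted p. Reads were allowed to align at up to 20 places, so near-identical copies may share reads, and how much the copies described only as carbonic anhydrase share was not tested.

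Genes that work beside carbonic anhydrase were counted from lists of partners. Of 7 rows of Rubisco small chains and activase, 3 were called higher in S3_S (2.67% of all genes) and 0 lower (5.2% of all genes), each a small chain. These 3 also had an adjusted p under 0.05 in limma (3.75% of all genes), which 1 kept with the replicate number as a block and 0 without S3_C replicate 1, S3_C replicate 2 or S3_S replicate 3. The joint row of *Bo4g137140* and *Bo4g137150* was at 1962, 374 and 650.3 FPKM in S3_S, against 8.18, 7.19 and 2.24 FPKM in S3_C, a log2 difference of 6.97. *Bo4g144000* differed by 4.24 and *Bo6g059930* by 5.24. In contrast, *Bo2g055370*, *Bo2g055360* and *Bo2g055400* of this list reached at most 0.250, 0.203 and 0.125 FPKM. These values are too low for a difference beyond 1 in log2(FPKM + 1). Between S2 and S1, 2 of 7 were called lower (2.04% of all genes), *Bo6g059930* (−3.44) and the joint row (−2.89). In limma 0 passed an adjusted p of 0.05 and 3 had an unadjusted p under 0.05 (8844 of 42771 genes). Without S1 replicate 1 the values were −2.78 and −2.06, and without S2 replicate 3 they were −3.44 and −3.19, past the threshold each time. The joint row lost its call without S2 replicate 1 or S2 replicate 2 and with the replicate block. The linear model with a library-size covariate called 0 of the 7 rows in either comparison, with 0 at an unadjusted p under 0.05.

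*Bo4g137200*, the most abundant Rubisco small chain, was not called in either comparison in the main fit, although its libraries did not overlap. With genes averaging under 1 FPKM dropped it was called higher in S3_S and lower in S2. Its adjusted p in limma was then under 0.05 in S3 only. In S3 it was also called with a pseudocount of 0.1. It was at 8429, 4247 and 4837 FPKM in S3_S, against 1087, 774 and 746 FPKM in S3_C, and at 1497, 1007 and 2313 FPKM in S2, against 11157, 5552 and 5186 FPKM in S1. The log2 differences were 2.70 (SE 1.70) and −2.17 (SE 4.65), where limma takes the spread from a trend over all genes and not from these libraries alone.

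Of genes of nitrogen metabolism, which KEGG groups with carbonic anhydrase, 31 were tested in S3, and 2 were called higher in S3_S (2.67% of all genes) and 2 lower (5.2% of all genes). Glutamine synthetase *Bo8g030490* was at 282, 143 and 177 FPKM in S3_S, against 49.6, 50.0 and 48.5 FPKM in S3_C, a log2 difference of 1.94. *GLU1*, the ferredoxin-dependent glutamate synthase of leaves, differed by 1.64. Another glutamine synthetase, *ATGSKB6*, was lower with 15.9, 21.5 and 25.1 FPKM in S3_S, against 72.1, 80.5 and 50.3 FPKM in S3_C, a difference of −1.65, and *Bo2g013150* differed by −1.53. *Bo2g013150* lost its call with median-of-ratios scaling and without S3_S replicate 2 or S3_S replicate 3. The linear model with a library-size covariate called only *Bo6g082020* of this list in S3. *Bo2g013450*, an abundant gene of the list without a description, differed by −0.24 and was not called. Between S2 and S1, 1 of 35 was called higher (7.02% of all genes), *GDH1* (1.76), and 3 lower (2.04% of all genes), *Bo8g030490* (−1.83), *GLU1* (−2.14) and *GSR2* (−1.14). In limma 0 of the 35 passed an adjusted p of 0.05 and 5 had an unadjusted p under 0.05 (8844 of 42771 genes). These 4 calls held without S1 replicate 1 (1.76 for *GDH1*, −1.36 for *Bo8g030490*, −1.52 for *GLU1* and −1.02 for *GSR2*) and without S2 replicate 3 (1.42 for *GDH1* and −2.50 for *GLU1*, for example). The linear model with a library-size covariate turned *GDH1* to −1.48 and called only *Bo7g021400* of the list between S2 and S1. *Bo8g030490* lost its call without S2 replicate 1, and *GLU1* without S2 replicate 2.

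Plasma membrane aquaporins, some of which are held to pass CO2 as well as water, were called higher for 2 of 8 in S3_S (2.67% of all genes) and lower for 3 of 8 (5.2% of all genes). *PIP1A* was at 10.5, 24.2 and 22.9 FPKM in S3_S, against 1.92, 1.18 and 3.02 FPKM in S3_C, a log2 difference of 2.70, and *PIP2B* differed by 1.43. *PIP2E* was at 50.7, 52.8 and 27.6 FPKM in S3_S, against 163, 132 and 111 FPKM in S3_C, a difference of −1.64, and *PIP1D* (−1.37) and *Bo5g001010* (−1.69) were called lower as well. Both lost their calls with median-of-ratios scaling and without S3_S replicate 1, S3_S replicate 3, S3_C replicate 1 or S3_C replicate 2, and *PIP2B* without S3_S replicate 3. The linear model with a library-size covariate turned the direction of *PIP1D* (2.37), *Bo5g001010* (2.31) and *PIP2E* (0.0034). It called 0 of the 8 aquaporins in either comparison. The most abundant rows, both named *PIP1B*, differed by −0.35 and −0.57 and were not called. Between S2 and S1 only *PIP1A* was called among the 8 (−1.12), also without S1 replicate 1 (−1.08) and without S2 replicate 3 (−1.44), but not without S2 replicate 1 or S2 replicate 2. Phosphoenolpyruvate carboxylase, which uses the bicarbonate that carbonic anhydrase makes, gave 0 calls among 5 genes tested in S3 and 0 among 6 between S2 and S1 in limma. An unadjusted p under 0.05 was found for 2 in S3 (10776 of 42625 genes) and 0 between S2 and S1 (8844 of 42771 genes). The S3 differences of its most abundant rows were −0.69 for *Bo3g183930*, −2.27 for *Bo5g034350* (SE 0.94, called lower in some alternatives such as the replicate block) and 0.0085 for *Bo6g121050*. Of the genes of stomatal CO2 signaling, *ATMPK4* and *OZS1* were found in the table. In S3, 0 of 2 were called and 1 had an unadjusted p under 0.05 in limma (10776 of 42625 genes). *ATMPK4* was called higher in S2 (1.33, with 7.02% of all genes called higher), with 1.40 without S1 replicate 1 and 1.66 without S2 replicate 3. That call was lost with median-of-ratios scaling (0.82), with quantile normalization (0.98) and in the linear model with a library-size covariate.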

How the data were processed

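Poly(A) RNA of 12 libraries was sequenced in pairs. The authors filtered reads by quality and used HISAT (HISAT2 2.0 in the processing notes of the submitters) with the Ensembl Plants genome of *Brassica oleracea* (release 38). A read could hold 2 mismatches and be placed 20 times. Transcripts were assembled with StringTie 1.3.0, and FPKM per gene were deposited. How transcripts of a gene were combined is not given in the sources used here. All 12 columns of values were used. FPKM keep no read counts, so a count test was not used, and depth is known only relative to the first S1 library, from low values that 45 to 61 genes per library share.

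Groups came from the titles. Comparisons were fitted on log2(FPKM + 1) with limma 3.58.1 in R 4.3.3, using lmFit and a trended eBayes. Genes detected in 1 or more of the 6 libraries were tested, which left 42625 genes in S3 and 42771 genes between S2 and S1. A gene was called when its log2 difference exceeded 1 in either direction and its unadjusted p was under 0.05, and Benjamini-Hochberg adjusted p-values are over all genes tested. With 3 libraries per group the smallest p of an exact permutation test is 0.1, so none was used. Libraries were said not to overlap when every value of a group lay on the same side of every value of the other. As alternatives, the pseudocount was set to 0.1, genes averaging under 1 FPKM were dropped, libraries were rescaled by median of ratios or by quantiles, the replicate number was used as a block, the 12 libraries were fitted together, a linear model with a library-size covariate was fitted as in Ballgown, and libraries were left out in turn. Fits were tested on simulated data. Summaries and figures used Python 3.11.15, numpy 2.4.6, pandas 2.3.3 and matplotlib 3.10.9.

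Every member is described, and of the partner lists the counts and the genes called or most abundant. The members and lists were chosen with earlier results of these data known. Sequences and coordinates of the members were not used here.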

Additional observations from a re-analysis of the deposited data

How the results depend on the processing

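The number of genes called for S3_S against S3_C was 3358, and it was 6803 with a pseudocount of 0.1 and 1030 in the linear model with a library-size covariate (2738 to 4350 without each library in turn). For S2 against S1 it was 3875, and it was 6950 with the pseudocount of 0.1, 1018 in the covariate model and 2547 to 5499 without each library in turn, the lowest without S1 replicate 3. With an adjusted p under 0.05, the S2 against S1 comparison gave 1 gene in the pairwise fit, 142 with a mean of at least 1 FPKM and 3643 with all 12 libraries in the fit, and the S3_S against S3_C comparison gave 1598 genes, 0 in the covariate model and 2 to 1092 without each library in turn, with 2 without S3_C replicate 1, 10 without S3_S replicate 3, 17 without S3_C replicate 2 and 99 without S3_S replicate 2. Scaling turned the balance of calls. Of the genes called, 33.9% were higher in S3_S without scaling, but 66.0% with median-of-ratios scaling and 60.5% with quantile normalization, and 77.5% were higher in S2 without scaling, but 36.5% and 39.6% with these. For S3_S over S3_C, the covariate model turned *Bo1g158950* to −0.38, *ATBCA6* to −0.17 and *Bo3g170630* to 0.36, and it gave 4.40 for *Bo5g155090* and 6.52 for *CA2* in place of 9.30 and 7.42. It turned *Bo2g068140* to −0.55, *ATBCA6* to −3.26, *Bo3g101390* to −0.92 and *CAH1* to 0.20 for S2 over S1. For S2 over S1, median-of-ratios scaling and quantile normalization gave −0.13 and −0.17 for *Bo3g101390*, −0.23 and −0.23 for *Bo1g008020*, and −0.042 and −0.077 for *Bo3g170630*. *ATBCA6* ran from −0.095 (without S2 replicate 3) to 1.29 without each library in turn. For these changes the cause was not tested.

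With the replicate number as a block, 3772 genes were called for S3_S against S3_C (394 with an adjusted p under 0.05, against 1598 without the block) and 3557 for S2 against S1, and no call of a member changed. Deviations from the group means of same-numbered S3 libraries correlated by 0.0968 to 0.421 over all genes tested. Over genes averaging 1 FPKM or more they correlated by 0.113 to 0.467. Other S3 pairs gave −0.433 to 0.210 and −0.470 to 0.237. Each same-numbered S3 pair was thus positive, and whether margin and center are paired by number was not settled here. The S3 fit is given without the block, and its adjusted p-values depend on that choice. Same-numbered S2 and S1 libraries correlated by −0.355 to 0.182 over all genes tested, and other pairs by −0.374 to 0.439. No pairing by number was seen there, and the labels do not settle it. Precision is limited by spread and depth. *Bo5g155090* spread from 172 to 3652 FPKM in S1, and 2 of the 3 center values of *Bo1g158950* lie near a single fragment. The overlap of libraries and the calls of partner genes were also recomputed under these settings, which was chosen after seeing the data.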
